A study of Arabidopsis thaliana with 18 samples.

Results

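On 78 of 22746 probe sets of the Affymetrix ATH1 array, petioles of Arabidopsis thaliana Col-0 carried more transcript in a dense canopy than on plants grown alone, with no comparable increase in any of 3 light treatments. These probe sets were chosen by the measured values themselves. The canopy mean had to exceed the mean of single plants by 0.7 or more on the log2 scale, the arrays of these groups could not overlap, and each light treatment had to lie below 0.3 over control light. Genes of the CYP, UGT, GST, ATG, TUA, TUB and SWEET families, 6 further genes and genes up by 0.4 in low blue light were left out. This removed LTI30 and TUA1 from 80 probe sets that met the numerical conditions. The annotation named 1 gene for 32 of the 78, several genes for 1 and none for 45, and exclusion by gene name could not be applied to those 45.

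The 18 arrays formed 6 groups of 3. In the density experiment, petioles of plants 37 d old came from plants kept single or set at 2066 plants per m2 as soon as they were potted, and each replicate pooled 4 plants with 2 young petioles each. In the light experiment, petioles of single plants 29 d old were taken after 24 h of control light, low R:FR light (a reduced ratio of red to far-red), low blue light, or low blue + low R:FR light together (called combined below). All plants were wild-type Col-0, and the canopy and its single controls both had control light as their light treatment. How many plants make up a light replicate is not stated, nor whether those replicates are independent pools. Their p-values therefore reflect only the variation among these samples, which may be technical.

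Leaves in a crowded stand receive less red and blue light because neighbouring foliage absorbs both, while far-red passes through or is reflected. Phytochromes sense the red to far-red ratio, cryptochromes and phototropins sense blue light, and the petiole responds by elongating and lifting the blade. A canopy also changes touch between leaves, humidity, air movement, total light and carbon supply, so a stand differs from single plants in more than the 2 light signals that were applied here on their own.

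Array medians ran from 1.6 to 1.66, and correlations between arrays of 1 group from 0.978 to 0.994. Over all arrays, 56.9% of probe sets had a mean below 2, near the floor of these values, where differences are compressed. Of the 78 probe sets 20 had a mean below 2 on single plants and 1 did so in the canopy. The petiole has no exclusive marker among the named probe sets. The leaf photosynthesis gene RCA, a Rubisco activator, lay at 11.1 on single plants and 10.9 in the canopy, and the phloem gene SWEET11 at 1.27 and 1.25. PYK10, a β-glucosidase best known from roots, lay at 1.52 and 3.21, and the ER body gene NAI2 at 1.7 and 2.23. The summed linear level of these 2 root markers, of 4 listed, was 4.23 to 10.8 on single arrays and 10.7 to 19.1 on canopy arrays. It was 4.83 to 5.56 in control light and 6.32 to 10.8 in low R:FR. Low blue gave 4.25 to 8.10 and combined light 5.04 to 6.88. The part of these markers in the values below was not tested. In whole petioles, more cells of a type and more RNA per cell cannot be told apart.

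Averaged over the 78 probe sets, the log2 level was 3.41, 3.49 and 3.44 on the single arrays and 4.41, 4.49 and 4.47 on the canopy arrays. Control light lay between them, at 3.89, 3.86 and 3.93. Low R:FR gave 3.66, 3.69 and 3.81, low blue 3.99, 3.98 and 3.76, and combined light 3.86, 3.59 and 3.74. Single arrays were the lowest and canopy arrays the highest. The choice of members fixed the order of canopy over single plants and limited increases in light, so nothing is read from this order. The third low blue array lay below the other two by more than the control arrays differed among themselves.

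**Figure D1:**
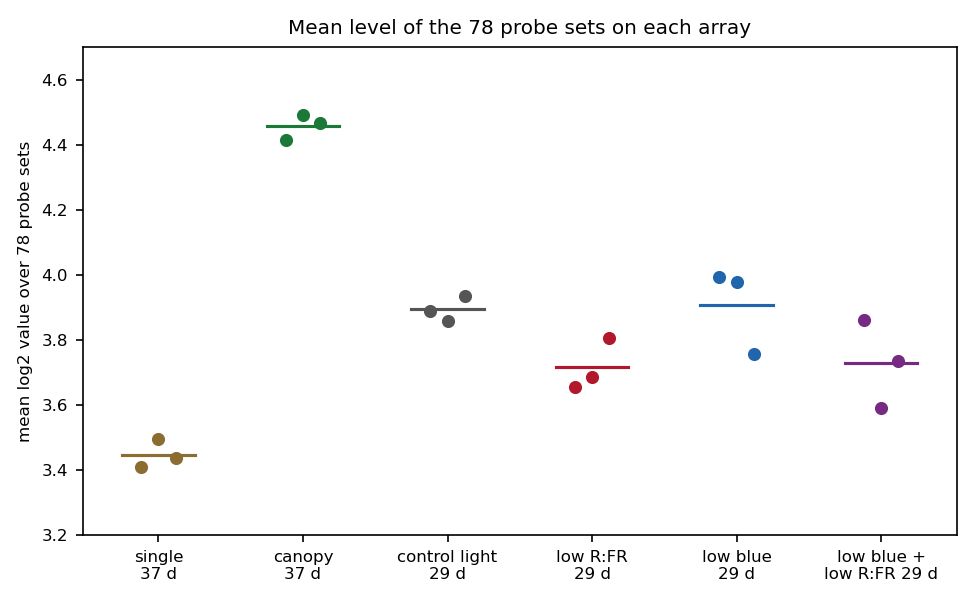
Mean log2 expression value over the 78 probe sets on each of the 18 arrays, by group; points are arrays and bars are group means. The canopy arrays lie from 4.41 to 4.49, the single arrays from 3.41 to 3.49, and all light experiment arrays from 3.59 to 3.99. The choice of the probe sets fixed the order of canopy over single plants.

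The difference between canopy and single plants, which chose the members and is given as a description, ran from 0.70 to 2.65 on the log2 scale with a median of 0.93, or from 1.62-fold to 6.26-fold. In 28 of 78 it was 1 or more. At a limma adjusted p under 0.05, 58 of the 78 and 2.11% of all probe sets were called higher in the canopy. Of the 32 named genes 26 were called. ARL, AT5G10770, AT1G66760, AT1G16170, AT5G48540 and AT5G42680 were not. The same values chose the members, so nothing is read from these counts. Named genes spanned 0.70 to 1.7 and those without a name 0.70 to 2.65. The largest differences were on unnamed probe sets. Probe set 252265_at read 1.63, 1.58 and 1.55 on single arrays and 4.74, 3.77 and 4.19 in the canopy. Probe set 253061_at read 1.38, 2.30 and 2.13, then 3.72, 5.41 and 4.51. Just inside the limit of 0.7 stood AT3G55960 at 0.7001, 265430_at at 0.7040 and AT4G08330 at 0.7054. Just outside it stood 255857_at at 0.6994, 262539_at at 0.6966 and AT5G18970 at 0.6941.

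**Figure D2:**
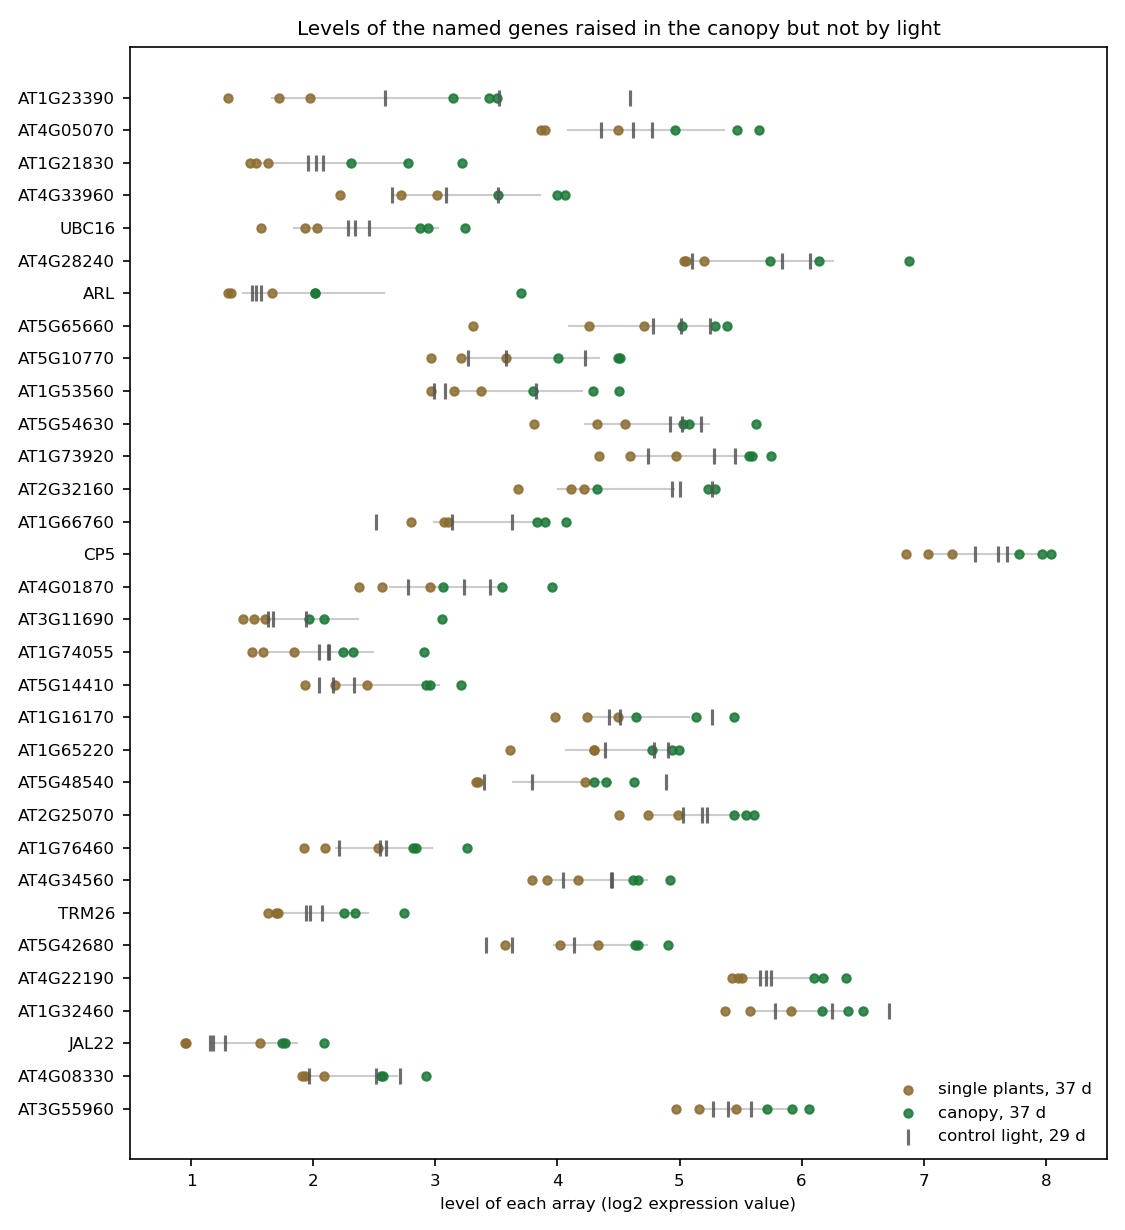
Log2 expression value of each array for the 32 named genes, ordered by the difference between canopy and single plants. Green points are canopy arrays, brown points single arrays (grey lines join their means) and upright marks are arrays of 29 d control light, which lie between the others for CP5 and UBC16 and at the canopy level for AT1G23390.

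Among genes of protein turnover, AT1G23390 had the widest difference of all named members. It encodes an F-box protein with kelch repeats that directs chalcone synthase, the entry enzyme of flavonoid synthesis, to degradation. Its level was 1.31, 1.72 and 1.97 on single arrays and 3.15, 3.44 and 3.51 in the canopy, a 3.25-fold difference. Control light gave 2.59, 3.52 and 4.60, so canopy and control light overlapped and single plants lay below all 15 other arrays. The gene met the light ceiling only with control light replicate 3, the highest of these. The other control light arrays lay below the low blue mean of 3.64. UBC16, a ubiquitin-conjugating enzyme, read 2.03, 1.93 and 1.57 on single plants and 2.94, 2.88 and 3.25 in the canopy. Control light at 2.34, 2.29 and 2.46 lay between both groups without overlap. AT5G10770, an aspartyl protease family gene, read 3.21, 2.97 and 3.58, then 4.50, 4.01 and 4.51. Its control light arrays, 3.27, 3.58 and 4.23, reached into both groups.

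Both members of the wound-responsive protein family were of similar size. AT4G05070 stood at 3.89, 4.50 and 3.87 on single arrays and 5.47, 4.96 and 5.65 in the canopy, a 2.42-fold difference, and the canopy arrays lay above all 15 others. AT4G28240 stood at 5.04, 5.20 and 5.06, then 5.74, 6.14 and 6.88, a 2.23-fold difference. Its control light arrays at 5.10, 5.84 and 6.07 overlapped both groups.

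Growth and the cytoskeleton were represented by ARL and TRM26. ARL, or ARGOS-like, promotes cell expansion in growing organs and responds to brassinosteroid. It was dim, at 1.30, 1.66 and 1.33 on single arrays and 2.01, 3.70 and 2.02 in the canopy, so canopy replicate 2 alone lay far above the rest. Its difference was 1.15 on the log2 scale with that array and 0.58 without it. TRM26, of the TON1 recruiting motif family that organises microtubule arrays, read 1.7, 1.63 and 1.72, then 2.74, 2.34 and 2.25. Control light was 1.98, 1.94 and 2.08 for this gene, between the groups.

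Genes of signalling comprised 2 phosphatases and a secreted protein. AT2G25070, a protein phosphatase 2C, read 4.99, 4.74 and 4.50 on single plants and 5.61, 5.44 and 5.55 in the canopy. AT3G55960, a phosphatase of the haloacid dehalogenase superfamily, read 5.46, 5.16 and 4.97, then 5.92, 5.72 and 6.06. AT5G48540, a cysteine-rich protein related to receptor kinases, read 4.22, 3.35 and 3.33, then 4.30, 4.39 and 4.63. For this gene single replicate 1 lay 0.08 or less below the lowest canopy array.

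Proteins of RNA, translation and zinc finger families gave 4 members. AT1G53560, a ribosomal protein L18ae family gene, differed by 1.04 on the log2 scale, with 3.37, 3.15 and 2.96 on single arrays and 3.80, 4.29 and 4.50 in the canopy. The zinc finger gene AT5G54630 read 3.81, 4.55 and 4.32, then 5.07, 5.03 and 5.63, and its single arrays lay below all 15 others. AT1G65220, an ARM repeat protein, had means of 4.07 ± 0.39 and 4.90 ± 0.11 (SD, n = 3), and the RNA-binding gene AT1G76460 of 2.19 ± 0.31 and 2.97 ± 0.25.

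Membrane, transport and small-molecule genes differed by 0.89 to 1.0. CP5, a lipid-binding membrane-related protein and the brightest named member, read 6.85, 7.23 and 7.04 on single plants and 8.04, 7.78 and 7.96 in the canopy. Control light at 7.68, 7.61 and 7.42 lay between them without overlap. AT1G66760, of the MATE efflux carriers, read 3.10, 2.80 and 3.07, then 4.07, 3.90 and 3.83, and the canopy arrays lay above all 15 others. AT1G73920, a lipase family gene, was likewise highest in the canopy at 5.57, 5.75 and 5.59 over 4.34, 4.97 and 4.60. AT2G32160, a methyltransferase family gene, read 4.22, 4.11 and 3.68, then 5.29, 4.33 and 5.23. Control light at 5.01, 4.94 and 5.27 lay within the range of its canopy arrays, and single plants lay below all 15 other arrays.

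The jacalin-related lectin gene JAL22 was the dimmest named member, with 0.95, 1.56 and 0.96 on single plants and 2.09, 1.74 and 1.77 in the canopy. AT5G65660, of a hydroxyproline-rich glycoprotein family, read 3.31, 4.26 and 4.71, then 5.02, 5.29 and 5.39. Its control light mean of 5.02 ± 0.23 was close to the canopy mean of 5.24 ± 0.19 (SD, n = 3). AT4G01870, a tolB-related gene, had means of 2.63 ± 0.30 and 3.52 ± 0.45.

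For 11 named members no role is given here. Of these AT1G21830 had the widest difference, with 1.63, 1.53 and 1.48 on single arrays and 2.77, 3.22 and 2.31 in the canopy. Its second probe set differed by 0.44 at a mean of 1.65 over all arrays, in the same direction and below the limit of the choice. AT4G33960 read 2.22, 3.01 and 2.72, then 3.52, 4.07 and 4.00. AT3G11690, AT1G74055, AT5G14410, AT1G16170 and AT4G34560 differed by 0.78 to 0.85. AT5G14410 was as low in control light (2.18 ± 0.14) as on single plants (2.19 ± 0.25) and stood at 3.03 ± 0.15 in the canopy.

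The 29 d control plants, grown alone in the other experiment, place both 37 d groups. Mean levels of single plants were below control light for 72 of the 78, against 51.7% of all probe sets. The median difference was -0.40 on the log2 scale, against -0.01 over all probe sets. Single and control arrays did not overlap in 33 of 78, where 6.62% of all probe sets had single plants below control light without overlap. Canopy arrays lay above control light without overlap in 45 of 78, against 7.25% of all probe sets. In 33 of 78 canopy and control light overlapped, as in 19456 of all 22746 probe sets. Overlap was found in 91 of 273 canopy-raised probe sets that light also raised. In 15 of the 78 the means of canopy and control light were within 0.3. In 30 of 78 more than 50% of the distance between single plants and canopy lay below control light. The share of all probe sets was not counted for these last counts. Single, canopy and control light arrays were all part of the choice, the last as the base of the light ceiling. The differences from control light therefore get no test, and nothing is read from these counts. Age, experiment and harvest cannot be told apart. Canopy-raised probe sets that light also raised gave like counts, with single plants below control light in 245 of 273 and a median of -0.42.

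**Figure D3:**
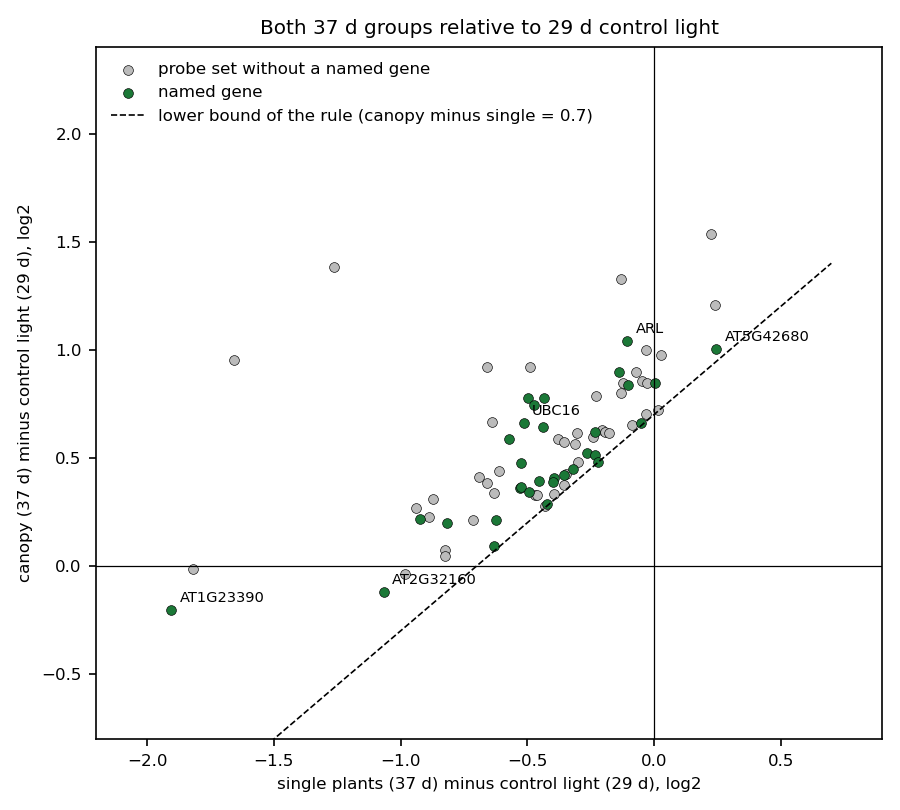
Mean of single plants (x axis) and of the canopy (y axis), each minus the mean of 29 d control light on the log2 scale, for the 78 probe sets; both axes share the control arrays. Most points lie left of 0 and above 0, and AT1G23390 at -1.90 and -0.20 and AT2G32160 at -1.07 and -0.12 lie below 0 on both axes.

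The members thus ranged between extremes of this layout. The canopy arrays were above all 15 other arrays in 25 of 78, against 0.624% of all probe sets, and the ceiling on light fixed part of that count. The named ones were AT4G05070, UBC16, AT1G73920, AT1G66760, AT5G14410, AT4G34560, AT5G42680 and AT4G22190. For AT5G42680, named with AT4G22190 after the values were seen, canopy minus control light was 1.0 and single minus control light 0.25. The single arrays were below all 15 others in 10 of 78, against 0.857%, among them AT1G23390, AT1G21830, AT5G54630 and AT2G32160. The ban on overlap with canopy arrays fixed part of this count too, and nothing is read from it. In the set that light also raised it was 91 of 273. In AT1G23390 and AT2G32160 the canopy mean did not reach control light, with canopy minus control light at -0.20 and -0.12.

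The light ceiling limited increases and left decreases free. In 48 of 78 no treatment moved the mean by 0.3 or more from control light, and in 30 at least 1 treatment lay 0.3 or more below it. These were 20 in low R:FR, 20 in combined light and 5 in low blue. The share of all probe sets at this step was not counted, and nothing is read from these counts. The median difference from control light was -0.10 in low R:FR, 0.05 in low blue and -0.10 in combined light, and over all probe sets -0.01, 0.00 and -0.00. All 3 treatments share the control arrays, and these contrasts were part of the choice. The calls that follow use the values of the choice, whose ceiling keeps members from being high, and nothing is read from them. With limma none of the 78 was called in low R:FR, where 0.866% of all probe sets were called (0.62% higher, 0.246% lower). None was called in low blue, where 0.58% were called (0.255% higher, 0.325% lower). At an unadjusted p under 0.05 these counts were 12 and 2, where 11.8% and 9.61% of all probe sets passed. In combined light 1 member, 265962_at, was called lower, where 2.26% of all were called (1.55% higher, 0.712% lower), and 12 had an unadjusted p under 0.05, as did 12.6% of all. Arrays lay below control light without overlap for 14 members in low R:FR (8.58% of all probe sets), 2 in low blue (5.37%) and 10 in combined light (7.52%). Just inside the light ceiling were AT1G53560 at 0.298, AT5G54630 at 0.292 and AT2G25070 at 0.291. Just outside were AT3G15760 at 0.301, 267375_at at 0.302 and 258797_at at 0.304.

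Low R:FR and low blue could be set against each other without control light, with the same ceiling on both. The means of both were part of the choice, so calls and p-values of members are given as a description. The same holds for the comparisons with combined light below. Of the 78, 7 were lower in low R:FR than in low blue and none higher (limma adjusted p under 0.05), where 4.39% of all probe sets were called, 2.26% higher and 2.13% lower. At an unadjusted p under 0.05 there were 15 of the 78 (14 lower), and 16.1% of all. Of the 273 canopy-raised probe sets that light also raised, 68 were called lower (24.9%) and 26 higher (9.52%), with a median of -0.23. Means were lower in low R:FR for 56 of 78, with a median of -0.13 against -0.01 over all probe sets. The share of all probe sets with a lower mean was not counted. AT1G32460 read 5.41, 5.58 and 5.69 in low R:FR and 6.67, 6.63 and 6.27 in low blue, a log2 change of -0.96 ± 0.20 (SE, limma adjusted p = 0.00911) with no overlap of arrays. CP5 read 7.38, 7.17 and 7.31 against 7.87, 7.75 and 7.75 (-0.50 ± 0.11, limma adjusted p = 0.0106). The phosphatase gene AT2G25070 read 4.89, 4.90 and 4.97 against 5.44, 5.65 and 5.22 (-0.51 ± 0.12, limma adjusted p = 0.0198). AT1G65220 read 3.81, 4.07 and 4.30 against 4.66, 4.93 and 4.67 (-0.70 ± 0.18, limma adjusted p = 0.0367). For all 4 genes every low R:FR array was below every low blue array.

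The other 3 called probe sets carry no name. Probe set 265962_at had the widest gap, with 2.70, 2.60 and 2.66 in low R:FR and 3.33, 4.76 and 3.74 in low blue (-1.29 ± 0.31, limma adjusted p = 0.0223). Probe set 250580_at followed at -0.92 ± 0.22 (limma adjusted p = 0.0236). AT1G23390 had a like difference, -1.09 ± 0.35, with 2.09, 2.47 and 3.09 against 3.60, 3.81 and 3.50, but did not pass (limma adjusted p = 0.103). The number of members called was 2 when low R:FR replicate 1 was left out and 1 when its replicate 2 was. It was 4 when low blue replicate 1 was left out and 3 when its replicate 2 was. AT1G32460 was called in all 6 leave-outs, CP5 in all but that of low R:FR replicate 2 (adjusted p = 0.0652), AT2G25070 in 2 and AT1G65220 in 1.

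**Figure D4:**
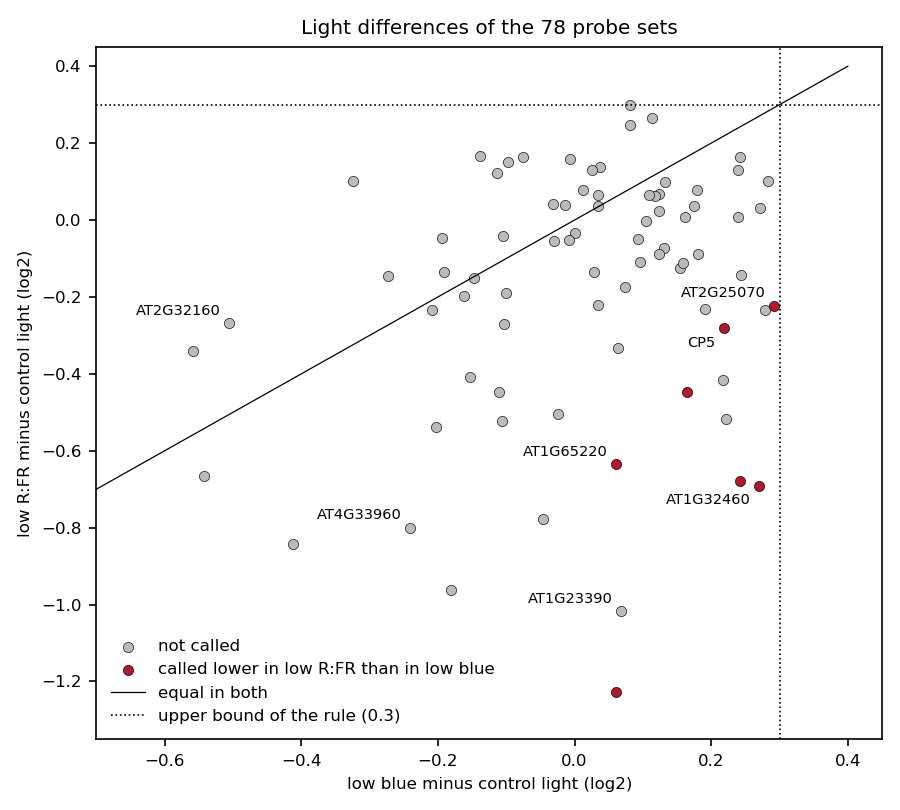
Difference from control light in low blue (x axis) and low R:FR (y axis) on the log2 scale for the 78 probe sets; dotted lines are the ceiling of 0.3 and the solid line marks equal values. The 7 probe sets called in the direct comparison (red) all lie below the solid line, with AT1G32460 at 0.27 in low blue and -0.69 in low R:FR.

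None of the 78 was called between combined light and low R:FR (limma, 0.448% of all probe sets called, 0.189% higher and 0.259% lower), and 4 had an unadjusted p under 0.05, as did 8.04% of all. Between combined light and low blue 1 of 78 was called, and it was lower, against 1.28% of all probe sets called (0.787% higher, 0.497% lower). This was 265962_at, at 2.54, 2.01 and 2.79 in combined light, a log2 change of -1.50 ± 0.31 from low blue (limma adjusted p = 0.0208). The call ended without low blue replicate 2 and without combined replicates 1 or 2. CP5 came next among named genes, at 7.40, 7.39 and 7.40 in combined light and -0.39 ± 0.11 from low blue (limma adjusted p = 0.0941).

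None of the 32 named members belonged to the 18 lists of pathway and marker genes that were compared with them. The annotation named 17 of the 163 list genes, and the members without 1 named gene could not be compared. The choice also left out SWEET genes such as SWEET11. With so few list genes, nothing is read from the lack of overlap. Of 5 named low energy genes, which are switched on when sugar runs short, 1 rose in the canopy (median 0.17, with -0.00 over all probe sets; 2.11% of all called higher and 2.15% lower). This was the SnRK1 kinase subunit gene AKINBETA1, at 1.69 ± 0.22 (limma adjusted p = 0.000251), while the transcription factor gene BZIP53 stood at 0.47 (limma adjusted p = 0.309) and the leucine breakdown genes MCCA, MCCB and IVD at 0.17, -0.15 and -0.03. Neither touch gene, CML39 or ZAT10, passed, at 0.06 and -0.22, and the list has 8 genes. The jasmonate gene PDF1.2 stood at -3.56 ± 1.42 (limma adjusted p = 0.229), the sulfur gene BGLU28 at -0.10, and the senescence genes SAG101 and WRKY6 at -0.09 and -0.12. IAA29, of the shade list, rose by 1.14 ± 0.21 (limma adjusted p = 0.00384), and of 2 root markers PYK10 rose by 1.69 ± 0.45 (limma adjusted p = 0.0412). The guard cell gene FMA, RCA and SWEET11 did not pass, at -0.24, -0.19 and -0.02. Means of IVD, CML39, ZAT10, BGLU28, SAG101, WRKY6, FMA and SWEET11 lay below 2, near the floor, on single plants and in the canopy. Differences are compressed there, so no lack of response is read from these genes. The salicylate, ethylene, abscisic acid, phosphate, nitrogen, iron, clock and xylem lists had no named probe set and were not analysed here.

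The named members lay on all 5 chromosomes, 12 on chromosome 1, 5 on 2, 2 on 3, 7 on 4 and 6 on 5. No 2 of them had fewer than 10 protein-coding genes between them in the RefSeq gene table (TAIR10.1).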

How the data were processed

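The deposited values are log2 expression values, 1 per probe set and array. Per the submitters' processing notes the authors used RMA. Its software, its version and the arrays it took together were not stated. Petioles were measured on 18 arrays in 6 groups of 3. Of 22810 probe sets, 64 controls were set aside. Names came from the platform annotation, updated through RefSeq (13513 probe sets with 1 gene, 503 with several, 8730 not listed). limma 3.58.1 in R 4.3.3 fitted a mean per group to all arrays without covariates, with eBayes (12 residual and 4.41 prior degrees of freedom) and two-sided Benjamini-Hochberg adjustment over 22746 probe sets, called under 0.05. The fit was checked on simulated data. SE is limma's and SD is over 3 arrays, whose number limits the precision. The named genes were the 25 with the largest difference, up to 4 per role, those nearest each limit and up to 4 called between light treatments. Members and lists were chosen with earlier results of these data known. Alternatives changed the normalization, the filter on dim probe sets, the intensity trend, array weights, the arrays fitted, the replicate block, the limits and single arrays.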

Additional observations from a re-analysis of the deposited data

How the results depend on the processing

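The choice of members depended on its limits. It gave 127 probe sets at a canopy difference of 0.6 or more and 28 at 1 or more, and from 60 to 109 at light ceilings of 0.2 and 0.4. Leaving out each of the 18 arrays gave 67 to 109, with 65 to 78 of the 78 kept. The fewest, 65, were kept without control light replicate 3 and without low blue replicate 3. AT1G23390, AT1G32460 and AT5G48540 were among those lost without control light replicate 3. Quantile normalization gave 84 (77 shared), and control light replicate 2 as the sole control array, an alternative chosen after seeing the data, gave 88. Single plants were below control light in 67 to 73 of the 78 under the alternatives run for that count, and in 64 of the 67 with a mean of 2 or more. Over the leave-outs, probe sets called in the canopy numbered 554 to 825 and members among them 38 to 47. For low R:FR against low blue these were 569 to 960 and 1 to 7, for combined against low R:FR 52 to 68 and 0, and for combined against low blue 124 to 332 and 0 to 2. Array weights called 200 probe sets in combined against low R:FR, and the light arrays alone called 2 members in combined against low blue. The causes were not tested. With the replicate block the members called were 59, 10, 0 and 1 in these comparisons, and it ended the canopy call of AT1G32460 (limma adjusted p = 0.0651) and gave one to AT1G16170 (0.023). Same-numbered arrays did not deviate together in every pair (correlations from -0.396 to 0.335), so numbers were not used as pairs. For canopy and single plants the correlations were all positive, at 0.169, 0.334 and 0.0623. There the block called 1083 probe sets, against 968 without it. No direction turned among named members. For canopy against single plants the ban on overlap fixed this in every leave-out. The named genes called in low R:FR against low blue had no overlap of arrays either, so nothing is read from it. Over 6 leave-outs, 12 of 26 called named genes lost the canopy call at least once. For probe sets near the floor, low signal limits the size of a difference.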
